A study of Homo sapiens with 6 samples.

Results

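The RNA levels of 10 genes of the BCL2 family of apoptosis regulators were followed in C4-2 cells with and without a knockout of CDK12. The genes were BCL2, BCL2L1, MCL1, BAK1, BID, BCL2L11, BAD, BIK, BMF and BCL2L12. They were chosen by symbol, matched to the Ensembl identifiers of the counts, and all 10 were found among 62696 genes and passed the filter on low counts. C4-2 cells are an established human line of castration-resistant prostate cancer. One group was 3 libraries of C4-2 cells with the vector, labelled wild type, and the other was 3 libraries of C4-2 cells with CDK12 knocked out by CRISPR-Cas9, by their labels, while the title of the series speaks of a knockdown. All cells were grown untreated in RPMI1640 with 10% fetal bovine serum. No guide, edited allele or clone is named in the labels, nor whether replicates are separate cultures, so the p-values reflect the spread of these libraries alone and that spread may be technical. Loss of CDK12 and any other difference between the knockout and vector cells cannot be told apart.

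The BCL2 family sets whether the outer mitochondrial membrane is permeabilised, the committing step of intrinsic apoptosis. BCL2, BCL2L1 (BCL-xL) and MCL1 hold the pore-forming effectors BAK1 and BAX in check. BH3-only proteins bind the groove of the antiapoptotic members or activate the effectors directly. In prostate cancer cells the antiapoptotic members are studied as survival factors and as drug targets. CDK12, with cyclin K, is a kinase of RNA polymerase II, and MCL1 is known as a short-lived RNA and protein that falls quickly when transcription is inhibited.

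The BH3 motif is the helix through which these proteins bind each other, and the bases that encode it are printed to show how far the members are alike and unlike there. In 9 of the 10 genes the GENCODE 29 coding sequence held a leucine, any 3 residues, then glycine, alanine or serine followed by aspartate and 1 of 5 polar or small residues, at a single place. BCL2L12, an atypical member, had no such match. Each stretch has 39 bases, 5′ to 3′ on the coding strand, with the codons of the leucine and of the last 2 fixed residues in capitals.
BCL2: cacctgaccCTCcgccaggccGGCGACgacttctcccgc
BCL2L1: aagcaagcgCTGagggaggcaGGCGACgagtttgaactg
MCL1: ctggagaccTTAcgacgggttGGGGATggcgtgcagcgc
BAK1: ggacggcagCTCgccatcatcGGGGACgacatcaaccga
BID: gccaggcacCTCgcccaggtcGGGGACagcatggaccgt
BCL2L11: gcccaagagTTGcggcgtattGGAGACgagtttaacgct
BAD: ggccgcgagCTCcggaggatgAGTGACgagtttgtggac
BIK: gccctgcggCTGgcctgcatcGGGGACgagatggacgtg
BMF: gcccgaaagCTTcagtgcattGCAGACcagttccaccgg
On GRCh38 these lie at chr18:63318349-63318387 (BCL2), chr20:31721922-31721960 (BCL2L1), chr1:150578865-150578903 (MCL1), chr6:33575387-33575425 (BAK1) and chr22:17739415-17739453 (BID), all on the minus strand. The stretch of BCL2L11 lies at chr2:111150094-111150132 and that of BIK at chr22:43127707-43127745, both on the plus strand. Those of BAD and BMF lie on the minus strand at chr11:64271622-64271660 and chr15:40104195-40104233. Each stretch sits within 1 coding exon. Over the 36 pairs of these stretches, 13 to 26 of the 39 bases were identical, with a median of 18.5.

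The libraries held 16617644 to 21590817 reads counted in genes. CDK12 RNA stood at 48.0 to 60.2 CPM (read counts scaled to a common library size) in the vector libraries and 56.5 to 60.8 in the knockout libraries, with an edgeR adjusted p of 0.709. A count per gene cannot show an edit within it. CPM includes a scaling factor per library (TMM), which was 0.737 for knockout library 2 and 1.04 to 1.1 for the others. Knockout library 2 stood apart, with a median correlation of 0.925 to the others in log2 CPM across genes against 0.977 to 0.979 for the other 5, so log2 fold changes are given with and without it. The 10 markers of prostate luminal cells were all detected, with summed levels of 9030 to 9124 CPM in the vector and 7706 to 10703 CPM in the knockout libraries. Of 3 basal, 4 leukocyte, 4 stromal and 3 endothelial markers, 1 in each list (TP63, CD3E, DCN and PECAM1) was at 0 in every library. The sums were at most 1.70 CPM for basal and 2.41 CPM for leukocyte markers. For stromal markers they were 21.6 to 23.2 CPM in the vector and 22.9 to 30.6 CPM in the knockout libraries, mostly COL1A1. For endothelial markers they were 4.56 to 5.12 and 6.61 to 10.3 CPM, mostly VWF. The 3 neuroendocrine markers summed to 2.14 to 11.1 CPM in the vector and 2.999 to 6.67 CPM in the knockout libraries, the highest being vector library 1. The part of these markers in the results was not tested.

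Per length of exon, the vector cells held much MCL1 and BCL2L1 RNA and almost no BCL2 RNA. Levels between genes are compared as TPM, here counts per kb of annotated exon scaled to the same total in each library. BCL2L12 led at 118 ± 9.18 TPM (SD, n = 3), followed by MCL1 at 88.4 ± 10.4, BCL2L1 at 72.6 ± 2.10, BIK at 60.3 ± 3.86 and BAK1 at 43.1 ± 2.66. BID at 17.5 ± 1.60 and BAD at 16.9 ± 3.06 TPM came next and their libraries overlapped. BCL2L11 stood at 9.39 ± 1.14, BMF at 2.99 ± 0.0485 and BCL2 at 0.214 ± 0.0641 TPM. Of the summed TPM of the 3 antiapoptotic members, MCL1 made 51.1% to 58.3% in the vector libraries and 50.5%, 34.1% and 51.8% in knockout libraries 1, 2 and 3. BCL2L1 made 41.6% to 48.8% in the vector libraries and 49.2%, 65.7% and 47.9% in the knockout libraries, and BCL2 at most 0.378% in any library. This order depends on how reads shared with genes on the opposite strand are counted, as described further on.

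**Figure D1:**
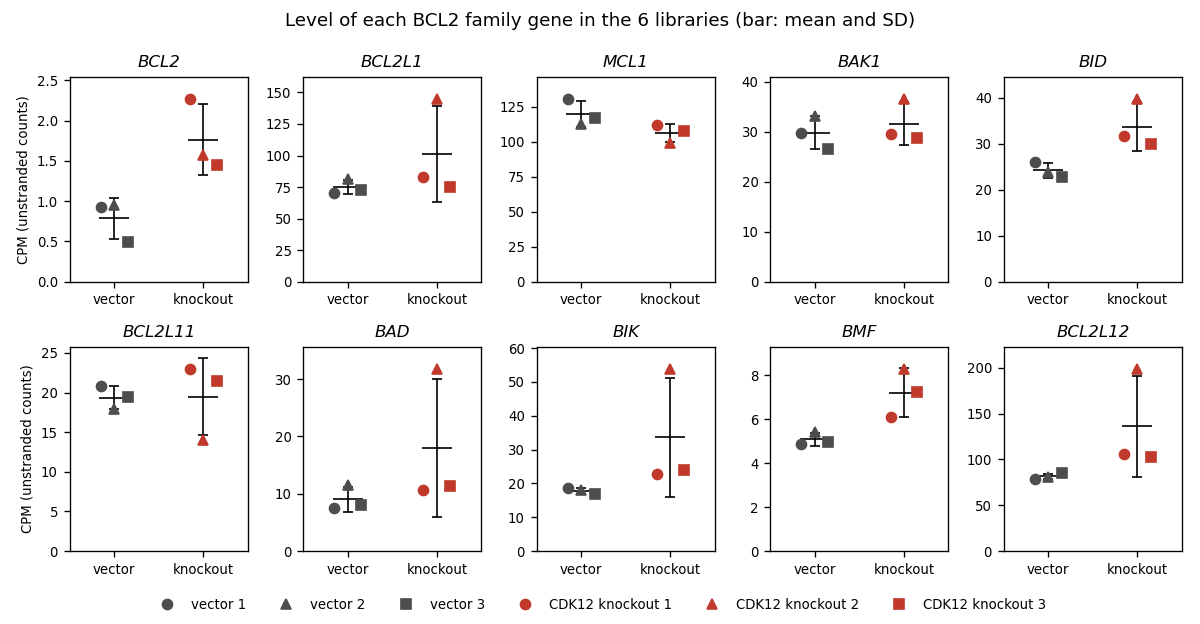
CPM of each BCL2 family gene (y axis, from 0) in the 3 vector and 3 knockout libraries, 1 panel per gene, with a bar for the mean and SD. BCL2, BID, BIK, BMF and BCL2L12 lie higher in every knockout library, and knockout library 2 (red triangle) is far above its 2 replicates in BCL2L1, BAD, BIK and BCL2L12.

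Among the antiapoptotic members, BCL2 was higher in CPM in the knockout libraries at a very low level, while BCL2L1 and MCL1 did not pass with all 6 libraries or without knockout library 2. BCL2 (ENSG00000171791.14, chromosome 18, 63123346 to 63320128) had 18, 17 and 9 reads in the vector libraries and 48, 25 and 28 in the knockout libraries. In CPM these are 0.921, 0.952 and 0.494 against 2.27, 1.57 and 1.45, so each knockout library lay above all vector libraries in CPM. In TPM, which does not use the TMM factor, knockout library 2 lay within the vector range (0.250 against 0.141 to 0.258). In bulk RNA, more cells that express a gene and more RNA per cell cannot be told apart. On the log2 scale the difference over all 6 libraries was 1.16 with an SE of 0.38 (edgeR adjusted p = 0.199), and ± marks the SE of such differences from here on. Without knockout library 2, BCL2 rose by 1.22 ± 0.41 on the log2 scale, 2.34-fold, with an edgeR adjusted p of 0.0447. That call was lost in DESeq2 (adjusted p = 0.0832) and when vector library 1 or 3, or knockout library 1 or 3, was left out too (edgeR adjusted p = 0.0599, 0.149, 0.424 and 0.0686; 0.0142 to 0.424 over all alternatives).

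BCL2L1 (ENSG00000171552.14, chromosome 20, 31664452 to 31723989) encodes BCL-xL and, by splicing, the proapoptotic BCL-xS, which gene counts do not separate. Vector libraries held 70.6, 81.5 and 72.8 CPM, and knockout libraries 82.9, 144.7 and 75.3 CPM. In CPM the groups overlapped, and only knockout library 2 was far from the rest. In TPM that library was nearer, with knockout libraries at 77.5, 81.6 and 70.9 and vector libraries at 70.2 to 74.1. The BCL2L1 log2 fold change was 0.43 ± 0.25 over all libraries (edgeR adjusted p = 0.314). Leaving out knockout library 2 gave 0.07 ± 0.08 (edgeR adjusted p = 0.579).

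MCL1 (ENSG00000143384.14, chromosome 1, 150574551 to 150579738) had vector levels of 130.4, 112.5 and 116.6 CPM and knockout levels of 112.3, 99.2 and 107.5 CPM. In CPM the knockout libraries lay below all vector libraries, by a narrow margin between vector library 2 and knockout library 1. In TPM the vector libraries stood at 98.3, 77.6 and 89.3 and the knockout libraries at 79.5, 42.4 and 76.7. There knockout library 1 lay above vector library 2, while knockout library 2 was far below all others. On the log2 scale the difference was -0.17 ± 0.12 (edgeR adjusted p = 0.374), and -0.13 ± 0.08 when knockout library 2 was left out (edgeR adjusted p = 0.242). MCL1 was the one gene of the 10 whose knockout libraries all lay below the vector libraries in CPM, and the difference did not pass. Over the 5 libraries it did pass with the replicate number as a block (log2 -0.18, edgeR adjusted p = 0.00608) and with vector library 2 left out as well (edgeR adjusted p = 0.0328), and p reached 0.701 over the alternatives.

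BAK1, the effector among the 10 genes, passed no test, and its groups overlapped. BAK1 (ENSG00000030110.14, chromosome 6, 33572547 to 33580293) stood at 29.6, 33.1 and 26.5 CPM in vector cells and at 29.5, 36.5 and 28.8 CPM in knockout cells. Knockout library 2 was the highest in CPM but the lowest in TPM, at 30.8 against 40.1 to 45.1 in the others. The BAK1 log2 fold change was 0.09 ± 0.15 over all libraries and -0.03 ± 0.11 without knockout library 2 (edgeR adjusted p = 0.722 and 0.865), so its direction changed with that library.

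Of the 5 BH3-only genes, BID and BIK rose in the fit without knockout library 2. BID is the messenger cut by caspase-8 that carries death receptor signals to mitochondria (ENSG00000015475.19, chromosome 22, 17734138 to 17774770). BID TPM in knockout library 2 lay within the vector range (16.7 against 16.1 to 19.3). In CPM vector cells held 26.0, 23.8 and 22.9 and knockout cells 31.6, 39.7 and 29.9, with no overlap. On the log2 scale this was 0.48 ± 0.15 over all libraries (edgeR adjusted p = 0.193) and 0.34 ± 0.10 over the other 5, a 1.26-fold rise (edgeR adjusted p = 0.0271). The call ended on leaving out vector library 3, or knockout library 1 or 3 (edgeR adjusted p = 0.0970, 0.242 and 0.119; 0.00288 to 0.242 over all alternatives).

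BIK, a sensitiser that resides at the endoplasmic reticulum (ENSG00000100290.3, chromosome 22, 43110748 to 43129712), had 18.6, 17.97 and 17.0 CPM in the vector libraries. The knockout libraries held 22.8, 54.0 and 24.0 CPM, all above the vector libraries, with knockout library 2 in CPM more than its replicates together. In TPM knockout library 2 stood out less, with knockout libraries at 74.2, 105.9 and 78.5, all above the vector libraries at 56.8 to 64.4. BIK had a log2 fold change of 0.91 ± 0.34 over all libraries (edgeR adjusted p = 0.214) and of 0.38 ± 0.11 over the other 5, a 1.31-fold rise (edgeR adjusted p = 0.0195). The call ended on leaving out vector library 3, knockout library 1 or knockout library 3 (edgeR adjusted p = 0.0743, 0.111 and 0.199; 0.00150 to 0.199 over all alternatives) and after a correction for exonic length and GC content (edgeR adjusted p = 0.0575).

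BCL2L11 (BIM), an activator that binds all antiapoptotic members, went both ways in the knockout libraries. BCL2L11 (ENSG00000153094.24, chromosome 2, 111119378 to 111168447) had 20.8, 17.9 and 19.4 CPM in vector cells, and 23.0, 14.0 and 21.5 CPM in knockout cells. Knockout library 2 was the lowest of all 6 and the other knockout libraries the highest. Log2 fold changes were 0.01 ± 0.21 over all libraries and 0.19 ± 0.11 over the other 5 (edgeR adjusted p = 0.975 and 0.252). BMF (ENSG00000104081.14, chromosome 15, 40087890 to 40108892), a sensitiser bound to the actin and myosin V cytoskeleton, stood at 4.86, 5.43 and 4.95 CPM against 6.09, 8.30 and 7.24 CPM. Its groups did not overlap in CPM, though in TPM knockout library 2 lay below the vector range (2.85 against 2.94 to 3.04). The BMF log2 fold change of 0.50 ± 0.19 did not pass (edgeR adjusted p = 0.215), nor did 0.39 ± 0.19 without knockout library 2 (edgeR adjusted p = 0.168).

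BAD, a sensitiser switched off by phosphorylation downstream of AKT and other kinases (ENSG00000002330.14, chromosome 11, 64269830 to 64284704), had 7.57, 11.5 and 7.97 CPM in the vector libraries. The knockout libraries held 10.7, 31.8 and 11.4 CPM, so vector library 2 overlapped them. BAD had a log2 fold change of 0.99 ± 0.45 over all libraries and 0.29 ± 0.17 over the other 5 (edgeR adjusted p = 0.242 and 0.266). Over the 5 libraries BAD passed with the replicate number as a block (log2 0.50, edgeR adjusted p = 0.00546) and with vector library 2 left out (0.50, edgeR adjusted p = 0.0163), and was at 0.09 after the length and GC correction (edgeR adjusted p = 0.730). These values rest on a small part of the gene's reads, as the counts on both strands show.

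BCL2L12, an atypical family member (ENSG00000126453.11, chromosome 19, 49665142 to 49673916), had the smallest adjusted p of the 10 genes without knockout library 2. It stood at 78.9, 80.7 and 84.8 CPM in vector cells and at 106.4, 199.1 and 102.5 CPM in knockout cells, with no overlap. Its log2 fold change was 0.74 ± 0.26 over all libraries (edgeR adjusted p = 0.211) and 0.35 ± 0.07 over the other 5, a 1.28-fold rise (edgeR adjusted p = 0.00155). This call was lost only without knockout library 1 (edgeR adjusted p = 0.0597, and from 8.15e-08 over all alternatives). IRF3, which overlaps BCL2L12 head to head on the other strand, rose as well in that fit (log2 0.21 ± 0.07, edgeR adjusted p = 0.0449).

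Counted together over all 6 libraries, 0 of the 10 genes passed (edgeR quasi-likelihood test, adjusted p under 0.05), where 0.596% of 15783 tested genes did, 0.418% higher and 0.177% lower. At an unadjusted p under 0.05 there were 5 (BCL2, BID, BIK, BMF and BCL2L12), against 21.7% of all genes. The count was also 0 in DESeq2 (6.21% of all genes called), limma-voom (0.665%), the summed stranded columns (0.436%), the length and GC correction (1.00%) and a fit with the replicate number as a block (0.0317%). Over the 5 libraries without knockout library 2, 4 rose (BCL2, BID, BIK and BCL2L12) and 0 fell, where 19.1% of 16339 tested genes changed, 10.2% rising and 8.88% falling. The 4 were also those at an unadjusted p under 0.05, against 31.7% of all genes. In the same libraries the count was 3 in DESeq2 (16.1% of all genes), 4 in limma-voom (18.9%), 5 with the summed stranded columns (20.6%), 3 with the length and GC correction (20.5%) and 6 with the block (33.9%). In CPM, groups did not overlap for 6 of the 10 genes over all libraries, 5 higher and MCL1 lower, where 39.4% of all genes had groups apart, 20.4% higher and 19.0% lower. Over 5 libraries there were 7, 6 higher and 1 lower, against 47.2%, 24.5% and 22.8% of all genes. In TPM the groups of BCL2, BID, BMF and MCL1 overlapped over all libraries. A log2 fold change above 0 was found in 9 genes over all libraries and 8 over 5, against 50.0% and 48.3% of all genes. The median log2 fold change over the 10 genes was 0.49 with all libraries and 0.32 without knockout library 2, beside 0.000373 and -0.0146 over all tested genes. The 10 genes were chosen with earlier results of these data known, so these comparisons with all genes are descriptions and not tests.

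**Figure D2:**
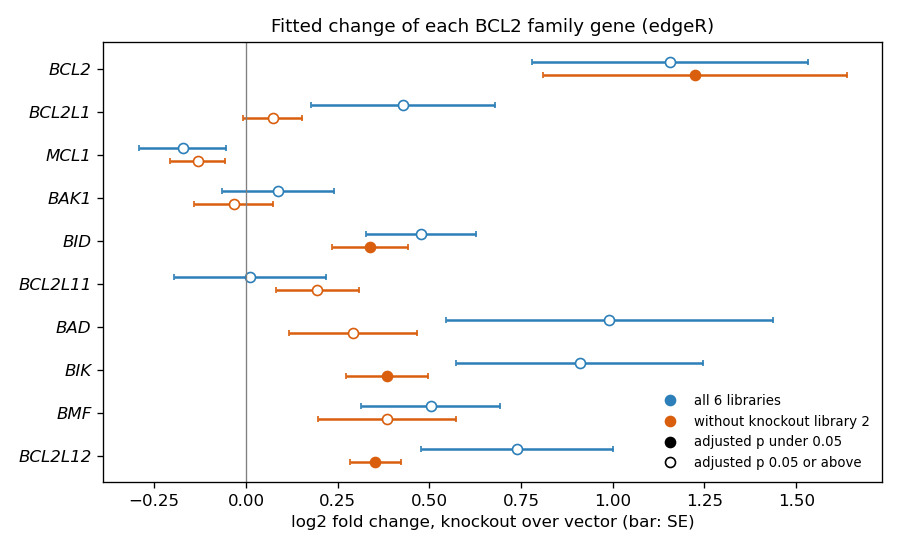
Log2 fold change of knockout over vector (x axis, bar: SE) for the 10 genes, with all 6 libraries (blue) and without knockout library 2 (orange), where filled points have an edgeR adjusted p under 0.05. Filled points are BCL2, BID, BIK and BCL2L12 without knockout library 2, and without that library BAD, BIK, BCL2L1 and BCL2L12 lie closer to 0 with shorter bars.

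The shifts of knockout library 2 are given beside exonic length. Its log2 CPM lay 1.59 above the vector mean in BIK (953 exonic bases), 1.83 in BAD (1708) and 1.29 in BCL2L12 (2216). It lay at -0.27 in MCL1 (4371) and -0.47 in BCL2L11 (6658). The other genes followed no order of length, with 0.30 in BAK1 (2212 bases), 0.95 in BCL2L1 (3314), 0.71 in BID (4446), 0.70 in BMF (5447) and 0.95 in BCL2, the longest at 11765 bases. The part of length in these shifts was not tested. After each library was corrected for its trend over exonic length and GC content, the 6-library log2 fold changes were 0.44 for BAD, 0.50 for BIK, 0.42 for BCL2L12 and 0.26 for BCL2L1, and 1.37 for BCL2. That correction also removes any such trend due to the knockout.

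For 6 of the 10 genes the deposited unstranded counts leave out reads, because an exon of another gene lies on the opposite strand. The files also hold counts by strand, whose totals differed by a ratio of 1.016 to 1.044, so the 2 stranded columns summed return these shared reads without telling which gene they came from. By GENCODE 29 the partners are ABALON (over BCL2L1), GGNBP1 (BAK1), MIR4435-2HG (BCL2L11), GPR137 (BAD), BMF-AS1 (BMF) and IRF3 (BCL2L12). BCL2, MCL1, BID and BIK had 0 shared reads in every library.

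In BCL2L1 the shared reads almost vanished in knockout library 2. They made 37.7%, 33.1% and 37.9% of the reads over its exons in the vector libraries and 28.9%, 4.13% and 28.6% in the knockout libraries. The 95% Wilson interval was 3.40% to 5.00% in knockout library 2 and covers counting error only. As reads these were 835, 719 and 807 in the vector libraries against 714, 99 and 583. ABALON had 0 to 2 reads of its own in any library. By the annotation the shared stretch, chr20:31721655-31723098, covers 43.0% of the exonic length and holds the BH3 bases printed above. The stretch that BAK1 shares with GGNBP1, chr6:33575351-33575441, holds those of BAK1. When shared reads were included, BCL2L1 stood at 96.3, 103.8 and 99.6 CPM in vector cells and at 98.3, 124.9 and 89.2 CPM in knockout cells. Its log2 fold change then was 0.06 ± 0.15, and -0.10 ± 0.07 without knockout library 2 (edgeR adjusted p = 0.808 and 0.367). In CPM knockout library 2 thus lay 1.78 to 2.05 times above the vector libraries without the shared reads and 1.20 to 1.30 times above them with the shared reads. In TPM, which does not use the TMM factor, the direction was the other way with the shared reads. The knockout libraries then stood at 75.7, 52.2 and 69.1 TPM, each below the vector libraries, at 80.4, 79.8 and 84.4 TPM.

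BAD was affected most, since 85.5% to 88.6% of its exonic reads were shared in every library, although GENCODE 29 has only 23.7% of its exonic length under GPR137. Its unstranded counts of 145 to 506 reads stand against 1098 to 4221 when the stranded columns are summed. On those reads BAD had 56.7, 67.6 and 51.3 CPM in vector cells and 72.8, 219.7 and 73.6 CPM in knockout cells, with no overlap. Over 5 libraries the log2 fold change was 0.32 ± 0.09 and passed (edgeR adjusted p = 0.0136). With all libraries it was 1.06 ± 0.44 (edgeR adjusted p = 0.237). GPR137, which shares those reads, also rose without knockout library 2 on its own reads (log2 0.26 ± 0.08, edgeR adjusted p = 0.0232), so the BAD value cannot be told apart from GPR137 without strand.

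**Figure D3:**
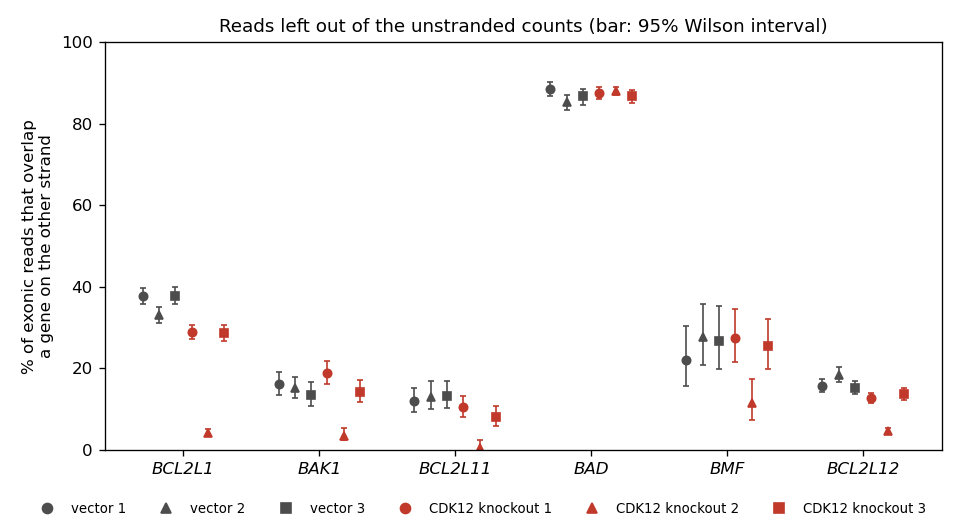
Percent of the reads over a gene's exons that overlap a gene on the other strand and are left out of the unstranded counts (y axis, bar: 95% Wilson interval) for 6 of the genes in each library. Knockout library 2 (red triangle) is the lowest in all but BAD, and BAD lies between 85.5% and 88.6% in all 6 libraries.

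The same library was lowest in BAK1 (3.49% against 13.5% to 18.8% in the others), BCL2L11 (0.448% against 7.96% to 13.2%), BMF (11.4% against 22.1% to 27.6%) and BCL2L12 (4.67% against 12.7% to 18.4%). Over the 3860 genes with at least 5% shared reads in the vector libraries and 100 reads in each, knockout library 2 was the lowest of 6 in 39.1% and the highest in 37.9%. BCL2L12 kept its call with the shared reads included (log2 0.29 ± 0.07 without knockout library 2, edgeR adjusted p = 0.00421). For BCL2L11 the 6-library log2 fold change turned to -0.09 ± 0.24. The order of levels changed too. With shared reads the vector libraries held 101 ± 5.66 TPM of BCL2L12, 92.3 ± 8.26 of BAD, 81.5 ± 2.51 of BCL2L1, 63.2 ± 7.14 of MCL1 and 43.1 ± 2.57 of BIK, so BCL2L1 stood above MCL1 and BAD near the top.

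Of 13 further genes of the BCL2 family 9 were measured, and BAX and BBC3 were the 2 with the largest rise. Over all libraries 0 passed in edgeR, and 3 had an unadjusted edgeR p under 0.05, beside 0.596% and 21.7% of all genes. In DESeq2 2 passed over all libraries, BAX and BBC3 (adjusted p = 0.0266 and 0.00176), and in limma-voom 0, beside 6.21% and 0.665% of all genes. Without knockout library 2, 3 rose and 1 fell in edgeR, beside 10.2% and 8.88% of all genes, and 4 had an unadjusted edgeR p under 0.05, beside 31.7%. BAX, the other main pore-forming effector, had 34.4, 43.6 and 37.4 CPM in vector cells and 58.4, 115.4 and 60.6 CPM in knockout cells. BAX had a log2 fold change of 1.02 ± 0.28 over all libraries (edgeR adjusted p = 0.163) and rose by 0.63 ± 0.10 over the other 5 (edgeR adjusted p = 0.000140, at most 0.00504 over all alternatives of that fit). BBC3 (PUMA), a BH3-only activator, went from 5.24 ± 0.332 to 9.31 ± 0.680 CPM (SD, n = 3 each). Its log2 fold change was 0.83 ± 0.16 over all libraries (edgeR adjusted p = 0.0910), and it rose by 0.77 ± 0.17 over the other 5 (edgeR adjusted p = 0.00358), a call lost when knockout library 3 was left out too (edgeR adjusted p = 0.0706). BOK, a further pore former, was at 0.65 ± 0.28 over all libraries and rose by 0.23 ± 0.07 over 5 (edgeR adjusted p = 0.231 and 0.0318). The BOK call was lost without vector library 3, knockout library 1 or knockout library 3 (edgeR adjusted p = 0.107, 0.289 and 0.153) and after the length and GC correction, where its log2 fold change was 0.04 (edgeR adjusted p = 0.739). BCL2L13, a mitophagy receptor, was at -0.28 ± 0.11 over all libraries and fell by 0.22 ± 0.08 over 5 (edgeR adjusted p = 0.224 and 0.0492). The BCL2L13 call held in 3 of 12 alternatives and not in DESeq2 or limma-voom (adjusted p = 0.0736 and 0.0518). The antiapoptotic BCL2L2 (BCL-w) had log2 fold changes of -0.30 ± 0.17 and -0.15 ± 0.09 over all and over 5 libraries, and the BH3-only PMAIP1 (NOXA) of 0.08 ± 0.22 and 0.20 ± 0.18, none past the threshold. HRK, BCL2L2 and PMAIP1 were singled out after their values were seen. HRK, a BH3-only gene too low for the test, had 0, 0 and 2 reads in the vector and 10, 8 and 8 in the knockout libraries, a ratio of 12.8 (95% counting interval 3.21 to 111).

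Of 10 genes of mitochondrial release and the apoptosome, 1 rose and 0 fell over the 5 libraries, near the 10.2% and 8.88% of all genes, and the list median was 0.05. The unadjusted edgeR p was under 0.05 in 0 over all libraries and 2 over 5, against 21.7% and 31.7% of all genes. VDAC3, an outer membrane channel that is not a family member, was at 0.15 ± 0.11 over all libraries and rose by 0.20 ± 0.07 over 5 (edgeR adjusted p = 0.399 and 0.0348). Its call was lost when vector library 1 or 3, knockout library 1 or knockout library 3 was left out too (edgeR adjusted p = 0.0751, 0.0875, 0.171 and 0.321). DIABLO (SMAC), which releases caspases from their inhibitors, had 3.54 ± 0.119 CPM in vector cells and 1.98 ± 1.03 CPM in knockout cells (SD, n = 3 each). Its log2 fold changes of -0.83 ± 0.39 and -0.52 ± 0.26 did not pass (edgeR adjusted p = 0.252 and 0.180). Of 9 caspase and DNA fragmentation genes 0 passed in either fit in edgeR, DESeq2 or limma-voom. An unadjusted edgeR p under 0.05 was found in 0, against 21.7% and 31.7% of all genes with and without knockout library 2. The initiator CASP8 was at -0.26 ± 0.19 and -0.11 ± 0.12, and the executioner CASP6 at 0.34 ± 0.18 and 0.31 ± 0.16, over all and over 5 libraries. Of 6 measured inhibitor of apoptosis genes 0 passed in edgeR, DESeq2 or limma-voom in either fit. At an unadjusted edgeR p under 0.05 there were 1 and 2 with and without knockout library 2, against 21.7% and 31.7% of all genes. XIAP, which blocks caspases directly, was at -0.40 ± 0.23 and -0.17 ± 0.07 (edgeR adjusted p = 0.308 and 0.0971), and passed over 5 libraries with the replicate number as a block (edgeR adjusted p = 0.0190). BIRC3 was at 0.63 ± 0.25 and 0.65 ± 0.27 (edgeR adjusted p = 0.220 and 0.100).

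Among 11 measured death receptor genes 1 rose and 0 fell over the 5 libraries, beside 10.2% and 8.88% of all genes. An unadjusted edgeR p under 0.05 was found in 3 with all libraries (21.7% of all genes) and in 7 in the fit over the 5 libraries (31.7%). TNFSF10, the ligand TRAIL, had 0.563, 1.01 and 0.824 CPM in the vector and 2.60, 4.03 and 2.95 CPM in the knockout libraries. It rose by 1.79 ± 0.35 on the log2 scale in that fit (edgeR adjusted p = 0.00136, at most 0.0284 over its alternatives), and had 1.99 ± 0.33 with all libraries (edgeR adjusted p = 0.0602). With all libraries TNFSF10 passed in DESeq2 (adjusted p = 6.29e-05) and with no filter on low counts (edgeR adjusted p = 0.0078). The adaptor FADD was at -0.60 ± 0.23 over all libraries and -0.42 ± 0.15 over 5 (edgeR adjusted p = 0.218 and 0.0545), but 70.1% to 89.3% of its exonic reads were shared with a gene on the other strand. With these included it was at 0.09 and -0.02. CFLAR, the inhibitor FLIP, was at -0.28 ± 0.13 and -0.21 ± 0.09, and the receptor TNFRSF1A at 0.35 ± 0.14 and 0.20 ± 0.08, none past the threshold. With the replicate number as a block, FADD, CFLAR and TNFRSF1A passed over 5 libraries (edgeR adjusted p = 0.00432, 0.0329 and 0.00163).

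Of 14 regulators of the family 2 rose and 2 fell over the 5 libraries, beside 10.2% and 8.88% of all genes, and the list median was -0.02. The unadjusted edgeR p was under 0.05 in 4 over all libraries and 7 over 5, against 21.7% and 31.7% of all genes. DYNLL1, the dynein light chain that binds BIM, was at 0.62 ± 0.23 over all libraries and rose by 0.30 ± 0.06 over 5 (edgeR adjusted p = 0.216 and 0.00244). DYNLL2, which binds BMF, was at 0.01 ± 0.19 over all libraries and fell by 0.21 ± 0.06 over 5 (edgeR adjusted p = 0.968 and 0.0279). USP9X, a deubiquitinase that stabilises MCL1, was at -0.41 ± 0.16 and fell by 0.27 ± 0.08 over 5 (edgeR adjusted p = 0.219 and 0.0275). After the length and GC correction DYNLL2 and USP9X did not pass (log2 -0.16 and -0.13, edgeR adjusted p = 0.0714 and 0.223). Both also lost their call without vector library 1, knockout library 1 or knockout library 3 (edgeR adjusted p = 0.108, 0.215 and 0.217 for DYNLL2, and 0.116, 0.0865 and 0.318 for USP9X), and USP9X without vector library 3 (edgeR adjusted p = 0.0750). DDIT3 (CHOP), a stress transcription factor, was at 1.10 ± 0.35 and rose by 0.54 ± 0.11 over 5 (edgeR adjusted p = 0.196 and 0.00167), with 54.9% to 61.8% of its exonic reads shared with a gene on the other strand. DYNLL1 and DDIT3 lost their call without knockout library 3 (edgeR adjusted p = 0.0544 and 0.0696), and DYNLL1 also without knockout library 1 (edgeR adjusted p = 0.0608). Over all libraries 0 of the 59 measured genes of the 6 lists passed in edgeR (unadjusted p under 0.05: 11; DESeq2: 3; limma-voom: 0). The shares of all tested genes were 0.596%, 21.7%, 6.21% and 0.665% in turn. Without knockout library 2, 7 rose and 3 fell, next to the 10.2% and 8.88% of all tested genes, and the median was 0.06. The unadjusted edgeR p was under 0.05 in 22 of the 59 there, against 31.7% of all tested genes.

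**Figure D4:**
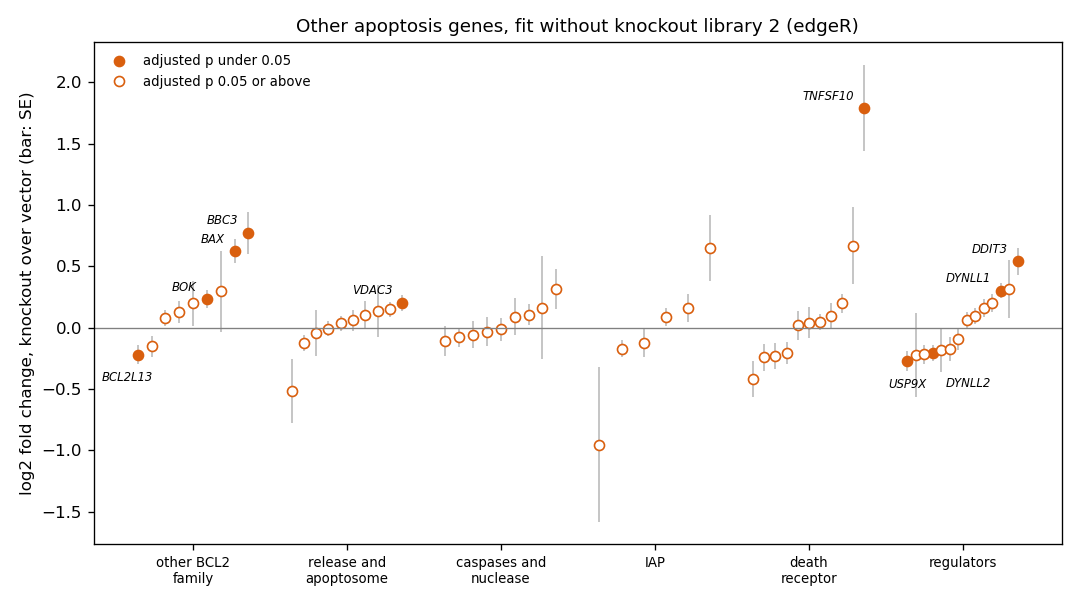
Log2 fold change of knockout over vector without knockout library 2 (y axis, bar: SE) for 59 measured apoptosis genes outside the 10, in 6 lists, where filled and named points have an edgeR adjusted p under 0.05. TNFSF10 lies highest at 1.79, BBC3 and BAX lead the other family members, and the caspase list has no filled point.

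Across the 6 libraries, the protein-coding genes whose log2 CPM was most like that of BCL2 were SEPHS2 and UBXN2A. For BCL2L1 they were NDUFAF2, SAMM50 and FBXW4, and for MCL1 VAPA, TTC26 and RAB5A. Of 10504 genes averaging 5 CPM or more, those not protein-coding or without a symbol were passed over. Pearson's r was 0.9818 to 0.9916, 0.9986 to 0.9995 and 0.9876 to 0.992 in turn, and without knockout library 2 0.98 to 0.991, 0.975 to 0.991 and 0.979 to 0.985. These values describe 6 libraries of which 1 stands apart, picked as the highest of many, and carry no test.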

How the data were processed

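Per the labels' protocols, total RNA of the 6 samples came from a Qiagen RNeasy kit and was made into libraries with a SMARTer mRNA kit. The submitters' processing notes name FastQC, STAR and GRCh38. For none of them do the sources used here give a version, nor for the gene annotation. The authors deposited raw read counts, 1 unstranded and 2 stranded columns per library. Unstranded counts are the main measure. Rows of unmapped, multimapping, unassigned and ambiguous reads (29.7% to 32.6% of reads) stayed out of library sizes.

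From the counts, edgeR 4.0.16 in R 4.3.3 (filterByExpr, TMM, robust quasi-likelihood test, no block) was run on all 6 libraries and again without knockout library 2, with Benjamini-Hochberg adjustment over all tested genes and a threshold of 0.05. Alternatives were DESeq2 1.42.0, voom in limma 3.58.1, DESeq2 size factors, no filter, summed stranded columns, a length and GC correction (splines with 5 degrees of freedom), a replicate block and leaving out each library. SE is the log2 fold change over the square root of F. The fits were also run on simulated counts. These held no library set apart and no pairing, so they cannot show how the fits handle knockout library 2. A name table matched 62625 and GENCODE 29 matched 58225 of 62696 identifiers. Positions, lengths and sequences are GENCODE 29's, and the counting may have used another release, so shared stretches are approximate.

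The 10 genes, the lists, the markers and the naming rule were chosen with earlier results of these data known. Named list genes come from the 4 with the smallest p in each list over the 5 libraries. BH3 coding bases were added later, since no protein sequences were used. One gene that the naming rule picks for likeness to BCL2 is not reported here.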

Additional observations from a re-analysis of the deposited data

How the results depend on the processing

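The number of the 10 genes past the threshold with all libraries was 0 under every alternative that kept 6 libraries, and 0 to 4 with a library left out, the 4 without knockout library 2. Without knockout library 2 it was 3 to 6 under the other alternatives. It was 3, 6 and 1 with vector library 1, 2 or 3 left out too, beside 2169 of 16016, 4703 of 16027 and 2144 of 15986 tested genes. With knockout library 1 or 3 left out instead, 1 knockout library remained, and the median log2 fold change over the 10 genes was 0.31 or 0.25. Over all genes, the 94 calls with 6 libraries became 363 with no filter, 980 in DESeq2, 153 with the length and GC correction and 4 to 3123 with a library left out. The 3123 calls of the 5 libraries became 1134 to 4703 with a further library left out. For the 6 other lists, the 0 calls became 1 with no filter, 3 in DESeq2 and 0 to 10 with a library left out, and the 10 calls of the 5 libraries became 2 to 18.

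With the replicate number as a block, 5 genes were called with 6 libraries (0 of the 10 genes) and 5540 with 5 libraries (6 of the 10, and 24 list genes). Same-numbered libraries had correlations of 0.135, 0.194 and 0.084 in their deviations from the group means, and unlike-numbered ones -0.193 to 0.076. The labels give replicate numbers but name no pairing, so the main fits had no block. Every library correlated best with its own number, which is a hint from the data and not from the design.

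Directions turned in the following genes, most of them near 0. With 6 libraries BAK1 was -0.1859 with the length and GC correction, and -0.0336 (without knockout library 2) to 0.1697 with a library left out. BCL2L11 was -0.007304 in limma-voom, -0.01729 with the block and -0.09364 with summed stranded counts, and -0.1247 to 0.1943 with a library left out, below 0 without vector library 2 or knockout library 1 or 3. DYNLL2 was -0.006337 in limma-voom, -0.01257 with the block and -0.01124 with summed stranded counts, and -0.2099 (without knockout library 2) to 0.1143 with a library left out. FADD went from -0.60 to 0.0948 with summed stranded counts, CFLAR from -0.28 to 0.01406 with the length and GC correction, and BIRC2 -0.02377 (without knockout library 1) to 0.1613 with a library left out. In the 5 libraries BCL2L1 was -0.09624 with summed stranded counts, -0.003194 with the length and GC correction, and -0.004687 (without knockout library 1) to 0.1443 with a library left out. BAK1 was 0.04667 with the block and -0.1037 to 0.04545 with a library left out, highest without vector library 2. DFFA was 0.004193 with the block and -0.1188 to 0.003673 with a library left out, highest without vector library 2, and CASP8 was -0.2226 to 0.001258, highest without knockout library 1. The cause was not tested. Depth limits BCL2, with 44 reads over the vector and 101 over the knockout libraries, and HRK, with 2 and 26.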
